A study of Mus musculus with 54 samples.

Results

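A group of 58 genes rose within 4 h of stimulation, by close amounts on a log scale, in wild-type (WT) mouse CD4+ T cells and in CD4+ T cells that lack the adaptor LAT (Lat-/-). The members were chosen from 55385 genes by their own read counts. Counts were scaled to CPM, the count multiplied by 1000000 and divided by the library total, and averaged as log2(CPM + 1) over the libraries of a group, and the 4 h mean minus the 0 h mean was taken as the rise. A member has a rise of at least 1.5 in WT and in Lat-/- cells, and its rises differ by at most 1. Of 27780 genes with at least 1 read in these libraries, 597 reached the rise in WT cells, 190 in Lat-/- cells and 139 in both. Of the 139, 81 had rises further apart than the rule allows, 78 of them higher in WT cells. The members are thus 9.72% of the genes that reached the rise in WT cells and 30.5% of those that reached it in Lat-/- cells. Of the 58, 55 are protein coding, and 56 have a mean of at least 50 counts in the LAT experiment.

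The RNA came from naive CD4+ T cells of pooled lymph nodes and spleens of young adult C57BL/6 mice, in 2 experiments with 3 libraries in each group. In the LAT experiment, flow cytometry separated WT cells (hDTR+) and Lat-/- cells (hDTR-) of Lat fl-dtr maT-Cre mice, in which a Cre that acts in mature T cells removes Lat, so the Lat-/- cells had developed with LAT. In the CD5/CD6 experiment, cells of WT, Cd5-/-, Cd6-/- and Cd5-/-Cd6-/- mice, the last carrying a deletion on chromosome 19, were enriched with a magnetic kit. Cells were lysed right after purification (0 h) or were stimulated for 4 h or 20 h with plate-bound anti-CD3 at 3 µg/ml and soluble anti-CD28 at 1 µg/ml. No group was cultured without the antibodies, so stimulation and time in culture cannot be told apart.

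LAT is a membrane adaptor that ZAP-70 phosphorylates once the T cell receptor is engaged. It gathers PLC-gamma1, GRB2, SOS and other proteins and so passes the signal to calcium, protein kinase C and the RAS-MAPK cascade. Genes that respond early to these branches include the nuclear receptors Nr4a1 and Nr4a3 and the zinc finger factor Egr1, while NF-kappaB drives its own subunits and inhibitors. Heat shock proteins are chaperones whose genes respond to protein stress.

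The libraries held 17784644 to 28501095 counts in the 18 libraries of the LAT experiment and 20554354 to 45222554 in the 36 of the CD5/CD6 experiment. A count of 0 allows up to 3 counts, or 0.105 to 0.169 CPM and 0.0663 to 0.146 CPM, for counting error only. Lat itself measured 222 to 313 CPM at 0 h in WT libraries of the LAT experiment and 11.4 to 20.3 CPM in Lat-/- libraries. It measured 243 to 307 CPM and 5.45 to 11.6 CPM at 4 h, and 97.1 to 107 CPM and 9.63 to 17.3 CPM at 20 h. WT libraries of the CD5/CD6 experiment held more Lat, 735 to 824 CPM at 0 h, 1002 to 1254 CPM at 4 h and 459 to 629 CPM at 20 h. The WT cells of the LAT experiment thus had less Lat RNA than other WT cells, and the effect of this on the members was not tested. Among Lat-/- libraries, replicate 3 held the most Lat at each time. Whether cells that kept LAT remained among the Lat-/- cells, and their part in the members' levels, was not tested. The 9 markers of conventional CD4+ T cells summed to 9692 to 12626 CPM in WT and 10135 to 11137 CPM in Lat-/- libraries at 0 h, whereas the 8 B cell markers stayed at or below 5.22 CPM and the 9 myeloid markers at or below 8.44 CPM in every library of that experiment. In the magnetically enriched WT cells the B cell markers summed to 143 to 690.4 CPM at 0 h, 93.7 to 282 CPM at 4 h and 2.06 to 3.60 CPM at 20 h, and the 4 erythroid or platelet markers to 908 to 1920.0, 751 to 1349.8 and 6.90 to 33.9 CPM. The part of these cells in the time differences of that experiment was not tested. In bulk RNA, fewer cells that express a gene and less RNA per cell cannot be told apart. At 0 h the library labelled Cd5-/- replicate 2 held 822 CPM of Cd5 and the library labelled Cd6-/- replicate 2 held 1349.6 CPM of Cd6, against 107 to 135 CPM of Cd5 and 270 to 368 CPM of Cd6 in the other libraries with those labels. Both go against their labels, so results that rest on them are given with and without them.

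**Figure D1:**
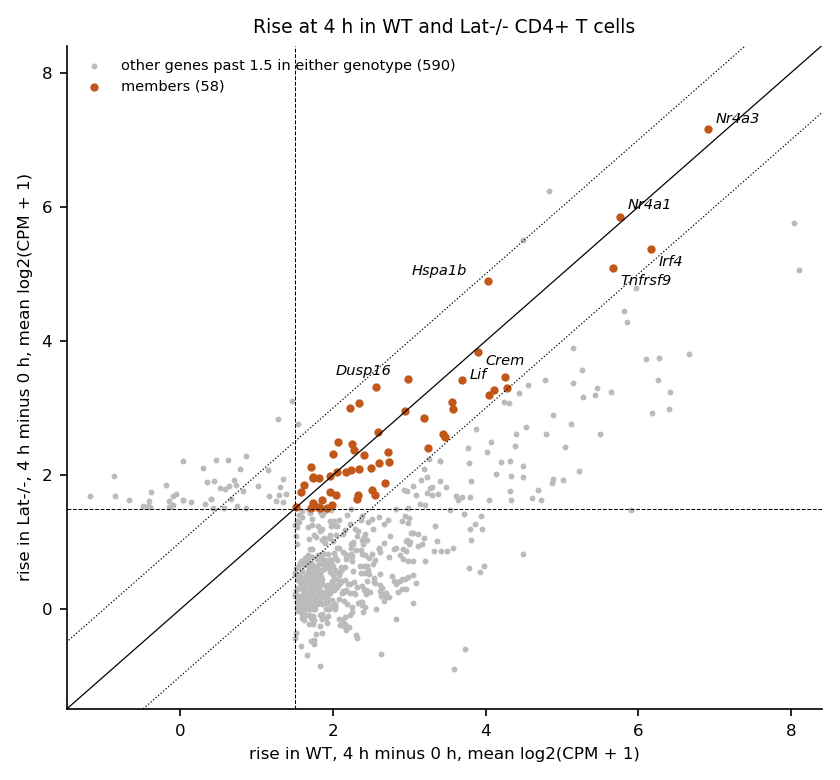
Rise at 4 h in WT cells (x axis) against the rise in Lat-/- cells (y axis), each the difference of group means of log2(CPM + 1) over 3 libraries, for genes past 1.5 in either genotype. Members are orange and other genes gray, dashed lines mark a rise of 1.5, the solid line equal rises and the dotted lines a difference of 1. The members follow the diagonal up to Nr4a3, and most gray points past 1.5 in WT cells lie under it.

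Rises of the members ran from 1.51 to 6.91 in WT cells (median 2.37) and from 1.501 to 7.15 in Lat-/- cells (median 2.24), on the log2(CPM + 1) scale, and 38 of the 58 rose more in WT cells. At the limit in WT cells, Ecm1 (1.52), Skil (1.58) and Abi2 (1.61) lay just inside and Tigit (1.39), Tubb2a (1.35) and Map1lc3a (1.31) just outside. At the limit in Lat-/- cells, Pmaip1 (1.501), Med7 (1.51) and Cblb (1.51) lay inside and Serpine2 (1.49), Rnf157 (1.48) and Sh2d2a (1.47) outside. For the difference of rises, Lat-/- minus WT, Pdcd1lg2 (-0.98), Maff (-0.90) and Hspa1b (0.86) lay inside and Hspa1a (1.01), Tbc1d30 (-1.02) and Bcl6 (-1.11) outside. Between same-numbered libraries all 58 members rose in all 6 pairs, and 34 reached 1.5 in all 6. In replicate 3 of the Lat-/- cells 43 members reached 1.5, against 53 to 55 in the other pairs.

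Close rises did not mean close levels, nor, for members near 0, close factors. Gm17641, for example, went from a mean of 0.593 to 6.69 CPM in WT and from 0.150 to 4.93 CPM in Lat-/- cells. At 0 h, 30 members were lower in every Lat-/- library than in every WT library and 1 (Dusp8, at 5 to 8 counts in Lat-/- libraries) was higher, where 5.18% and 3.47% of all genes separated in this way. At 4 h, 38 members were lower in every Lat-/- library and 2 (Skil and Tgif1) were higher, where 14.4% and 16.9% of all genes separated. The mean CPM in Lat-/- cells as a percent of that in WT cells had a median over members of 69.0% at 0 h (range 8.12% to 167%) and 57.8% at 4 h (range 9.67% to 403%). It lay under 50% for 23 members at 0 h and for 22 at 4 h. The 0 h and 4 h values chose the members, so they are given without a test. The 4 regulatory T cell markers, which activated conventional T cells also express in part, summed to 107 to 181 CPM in WT and 38.6 to 69.8 CPM in Lat-/- libraries at 0 h, and to 549 to 809 CPM and 99.8 to 120.4 CPM at 4 h. The 4 gamma delta T cell markers summed to 33.4 to 46.4 CPM and 15.2 to 17.5 CPM at 0 h, and to 14.0 to 19.9 CPM and 6.23 to 10.6 CPM at 4 h. Both lists were lower in every Lat-/- library, and their part in the members' levels was not tested.

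**Figure D2:**
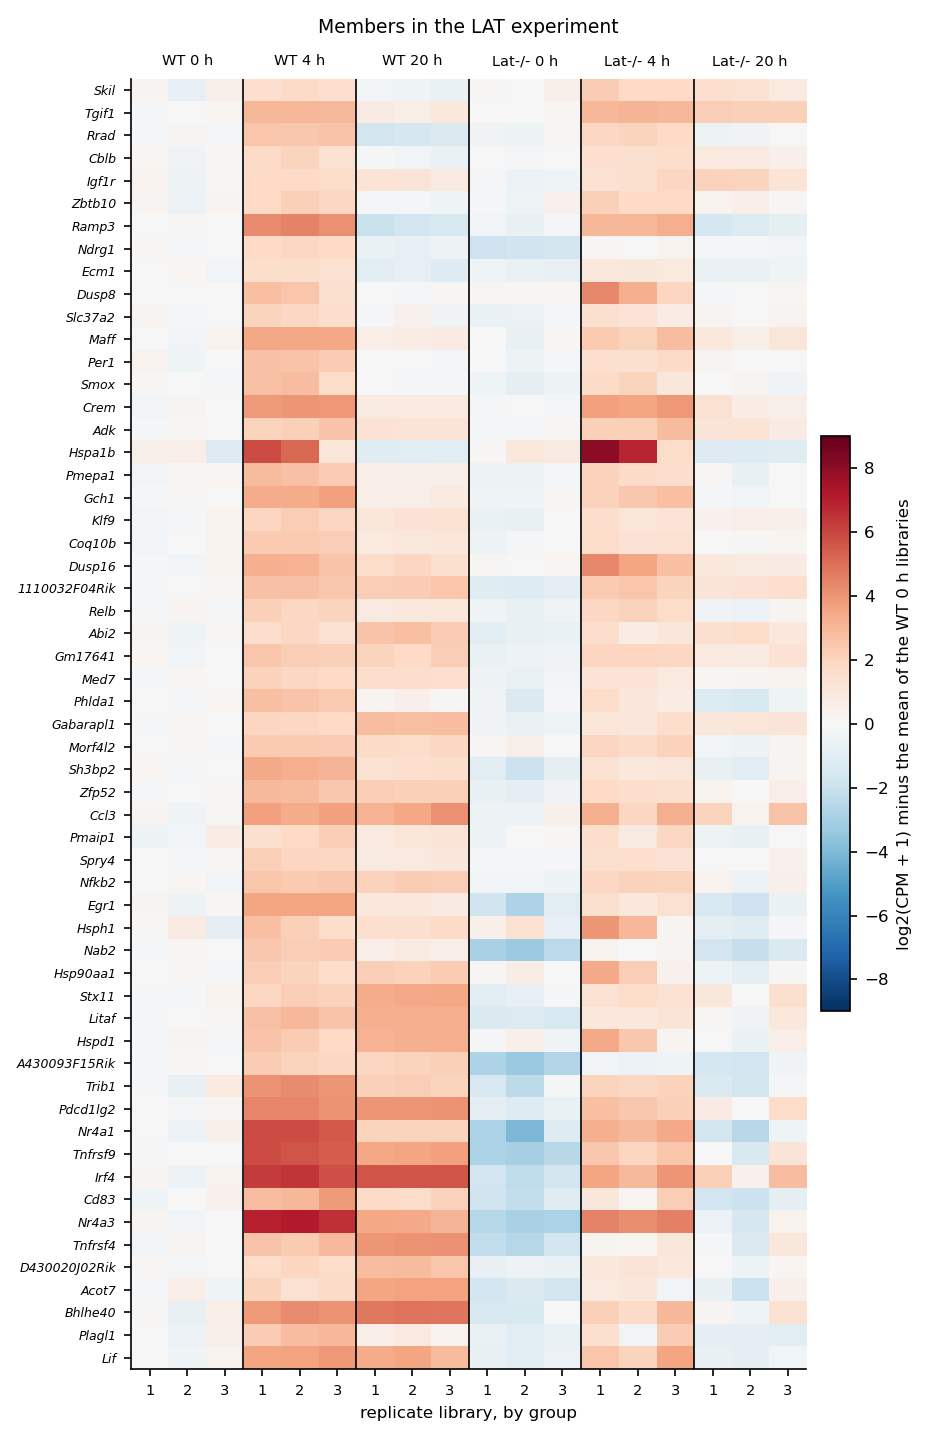
Each row is a member (1 is not shown) and each column a library of the LAT experiment, and the color gives log2(CPM + 1) minus the mean of the 3 WT libraries at 0 h. Rows run from the member with the highest Lat-/- to WT fold at 20 h (Skil) to the lowest (Lif). Rows near the bottom are mostly paler in Lat-/- than in WT cells at 4 h and at 20 h.

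The largest role group held 15 transcription factors and co-regulators. Nr4a1, the nuclear receptor NUR77 that is widely used to report T cell receptor signaling, had the highest level of all members at 4 h per length of transcript. It measured 134, 89.2 and 179 CPM at 0 h and 7606, 7570.1 and 5977 CPM at 4 h in WT replicates 1, 2 and 3. In Lat-/- replicates it measured 16.8, 6.92 and 58.2 CPM at 0 h and 1207, 960.2 and 1369.8 CPM at 4 h. Every Lat-/- library lay under every WT library of the same time, while the rises were 5.75 in WT and 5.85 in Lat-/- cells. Its relative Nr4a3 had the highest rise of all members, from 21.1 to 29.8 CPM to 2468 to 3681 CPM in WT cells and from 2.45 to 3.35 CPM to 458 to 582 CPM in Lat-/- cells. Irf4, a factor that activated T cells need to expand and differentiate, went from 13.4 to 25.5 CPM to 1148 to 1856 CPM in WT cells and from 3.42 to 5.63 CPM to 158 to 333 CPM in Lat-/- cells.

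Egr1 and Nab2, a zinc finger activator and a co-repressor that binds EGR proteins, were also far lower in Lat-/- cells. Egr1 reached 1371 to 1423 CPM at 4 h in WT libraries and 229 to 323 CPM in Lat-/- libraries, and Nab2 342 to 395 CPM and 72.1 to 91.0 CPM. Another pattern held for Crem, a cAMP-responsive modulator, and for Tgif1 and Skil, which both restrain SMAD proteins of the TGF-beta pathway. Crem measured 222, 245 and 233 CPM at 4 h in WT replicates and 201, 182 and 230.2 CPM in Lat-/- replicates, ranges that overlap. Tgif1 measured 255, 258 and 242 CPM in WT and 265, 274 and 259 CPM in Lat-/- replicates. Skil measured 375, 444 and 372 CPM in WT and 637, 449 and 465 CPM in Lat-/- replicates. For Tgif1 and Skil every Lat-/- library at 4 h lay above every WT library.

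The other transcription members were Maff, a small MAF protein, Per1, a clock repressor, Bhlhe40, a basic helix-loop-helix repressor, Klf9, a Kruppel-like factor, and the zinc finger genes Plagl1, Zbtb10 and Zfp52. Of these 7, Zbtb10 overlapped between genotypes at 4 h and the others were lower in every Lat-/- library. Bhlhe40 reached 56.7 to 75.9 CPM at 4 h in WT cells and 12.5 to 30.6 CPM in Lat-/- cells, and Plagl1 8.74 to 15.1 CPM and 0.675 to 8.64 CPM.

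Nfkb2 and Relb encode the p100/p52 and RelB subunits of the noncanonical NF-kappaB pathway. Nfkb2 measured 452, 408 and 429 CPM at 4 h in WT replicates and 295, 340.4 and 323 CPM in Lat-/- replicates, and Relb 273, 229 and 255 CPM and 231, 262 and 199 CPM. All Lat-/- libraries were lower for Nfkb2, and the genotypes overlapped for Relb. Litaf, a gene first described for induction by lipopolysaccharide, reached 54.8 to 72.3 CPM in WT and 17.0 to 20.1 CPM in Lat-/- cells. Among 22 genes listed for NF-kappaB feedback and targets, 11 reached the rise in WT cells and 8 in Lat-/- cells, and 3 (Cd83, Nfkb2 and Relb) were members.

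RefSeq promoters (GRCm38.p6, 250 bases before to 50 after a start) were found for 39 of the 58 members and searched for 11 motifs on both strands. An NF-kappaB motif stood in 7 of the 39 (17.9%), against 5.14% of all promoters and 6.78% of those of genes that reached the rise in WT cells alone. The 7 genes were Gch1, Maff, Nfkb2, Nr4a1, Pdcd1lg2, Ramp3 and Tnfrsf9. Matches before the start are shown for 4 of them, since they put the motif beside members of different roles. They lie on the plus strand at chr19:46304678-46304727 (Nfkb2, -39 to -30 from a start), chr4:150927936-150927985 (Tnfrsf9, -43 to -34), chr19:29410669-29410704 (Pdcd1lg2, -244 to -235) and chr11:6658462-6658511 (Ramp3, -51 to -42), and capitals mark the match.
Nfkb2: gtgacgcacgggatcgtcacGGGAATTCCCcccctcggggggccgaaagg
Tnfrsf9: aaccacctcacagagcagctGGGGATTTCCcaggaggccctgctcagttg
Pdcd1lg2: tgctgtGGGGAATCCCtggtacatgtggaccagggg
Ramp3: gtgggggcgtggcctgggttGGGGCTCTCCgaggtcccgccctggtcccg
For the other motifs, the share of member promoters is followed by that of all promoters and of genes that reached the rise in WT cells alone. The AP-1 motif TGANTCA stood in 7 (17.9%, against 8.97% and 6.19%) and the antioxidant response motif TGACNNNGC in 10 (25.6%, against 14% and 19.5%). The cAMP response element TGACGTCA stood in 2 (5.13%, against 2.03% and 5.6%), the E-box CACGTG in 8 (20.5%, against 8.09% and 19.8%) and the GC box GGGCGG in 31 (79.5%, against 38.2% and 73.5%). These 3 shares lay far closer to those of the other induced genes than to those of all promoters. Among genes averaging at least 50 counts in the LAT experiment they were 3.91%, 12.6% and 70.9%, so the GC box was common among expressed genes too. The ETS motif CCGGAAG stood in 4 (10.3%, against 9.93% and 18.9%) and the TATA box TATAAA in 4 (10.3%, against 15.7% and 8.85%). Genes averaging at least 50 counts held the ETS motif in 23.6% and the TATA box in 7.82%. The serum response element stood in 0 (against 1.81% and 1.47%), as did the C/EBP-ATF element TGATGCAA (against 1.03% and 0.59%). A match is a description of these letters, not a measured binding site.

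The 9 surface and secreted members included receptors of costimulation. Tnfrsf9 encodes CD137, a TNF receptor family member of activated T cells. It measured 1736, 1484 and 1302 CPM at 4 h in WT replicates and 160.4, 114 and 163 CPM in Lat-/- replicates, after 26.8 to 29.9 CPM and 2.63 to 4.33 CPM at 0 h. At 9.67% of the WT level it was the lowest of the members in Lat-/- cells at 4 h. Tnfrsf4 encodes OX40 and went from 26.7 to 38.5 CPM to 166 to 243 CPM in WT cells and from 4.62 to 9.31 CPM to 36.9 to 66.1 CPM in Lat-/- cells. Cd83, a surface marker of activated lymphocytes and dendritic cells, reached 55.0, 63.7 and 119 CPM in WT replicates and 16.1, 8.21 and 38.1 CPM in Lat-/- replicates. Pdcd1lg2, which encodes the PD-1 ligand PD-L2, reached 48.3 to 63.5 CPM and 11.9 to 18.8 CPM. All 4 were lower in every Lat-/- library. The secreted members were Lif, a cytokine of the IL-6 family, Ccl3, a chemokine, and Ecm1, an extracellular matrix protein. Lif went from 0.687 to 1.69 CPM to 23.9 to 31.2 CPM in WT cells and from 0.138 to 0.476 CPM to 7.87 to 24.9 CPM in Lat-/- cells, with overlap at 4 h. Igf1r, the receptor for insulin-like growth factor, overlapped as well (90.6 to 95.7 CPM and 72.9 to 110.1 CPM), whereas Ramp3, which modifies receptors for calcitonin-related peptides, did not (265 to 334 CPM and 121 to 150.3 CPM).

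Several of the 9 signaling regulators are known as brakes. Cblb encodes the ubiquitin ligase CBL-B, which restrains T cell receptor signaling, and measured 615, 734 and 472 CPM at 4 h in WT replicates and 512, 494 and 555 CPM in Lat-/- replicates, ranges that overlap. Sh3bp2, an adaptor of immune receptor signaling, measured 177 to 229 CPM in WT and 40.5 to 53.4 CPM in Lat-/- cells, and Trib1, a pseudokinase, 156 to 190.0 CPM and 34.7 to 40.4 CPM. Rrad, a small GTPase, Pmepa1, which dampens TGF-beta signaling, Phlda1, a pleckstrin homology domain protein, and Spry4, an inhibitor of RAS-MAPK signaling, were also lower in every Lat-/- library at 4 h. Dusp16 and Dusp8, MAP kinase phosphatases, were not, and Dusp8 measured 6.54, 5.74 and 2.25 CPM in WT and 22.2, 9.90 and 3.41 CPM in Lat-/- replicates. Spry4 had 0, 0 and 1 count in the Lat-/- libraries at 0 h and stood at 1.71 to 2.19 CPM at 4 h, against 2.98 to 4.04 CPM in WT cells.

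The 4 heat shock members, Hspa1b, Hsph1, Hspd1 and Hsp90aa1, varied widely between replicates at 4 h, and the genotypes overlapped for all of them. Hspa1b, an inducible HSP70 gene, measured 166, 100.02 and 4.98 CPM in WT replicates 1, 2 and 3 and 761, 324 and 7.79 CPM in Lat-/- replicates, after 0.301 to 3.35 CPM and 2.09 to 4.39 CPM at 0 h. Among the 4 h libraries of the CD5/CD6 experiment, WT replicates stood at 1.28, 1.30 and 1.19 CPM. Replicates 1 and 2 of the LAT experiment were thus high in both genotypes, and replicate 3 was far lower. Hsph1, a co-chaperone of HSP70, measured 2691, 1369 and 210.3 CPM in Lat-/- replicates at 4 h and 1167, 790.4 and 529 CPM in WT replicates. Hspd1, the mitochondrial chaperonin, measured 1169, 589 and 128 CPM and 643, 537 and 378 CPM, and Hsp90aa1, the inducible HSP90 gene, 857, 364 and 103 CPM and 369, 322 and 252 CPM. Replicate 3 was the lowest each time. Without replicate 1 of the LAT experiment Hsph1, Hspd1 and Hsp90aa1 were no longer members, and without replicate 3 Hspa1b was not.

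In Lat-/- cells at 4 h, replicate 3 had under 50% of the mean of replicates 1 and 2 for 8 members, among them these 4, Dusp8, Dusp16 and Acot7. In WT cells it did for 4, among them Hspa1b, Dusp8 and Smox. Reads of Hspa1b and its near-identical copy Hspa1a may be divided between them, and Hspa1a measured 104, 68.0 and 2.67 CPM in WT and 452, 203 and 4.05 CPM in Lat-/- replicates at 4 h. Over the 21 of 22 listed heat shock proteins and chaperones with a mean of at least 50 counts, the median rise was 1.90, 0.61 and 0.34 in Lat-/- replicates 1, 2 and 3 and 1.64, 0.62 and 1.38 in WT replicates. What set replicate 3 apart was not tested.

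**Figure D3:**
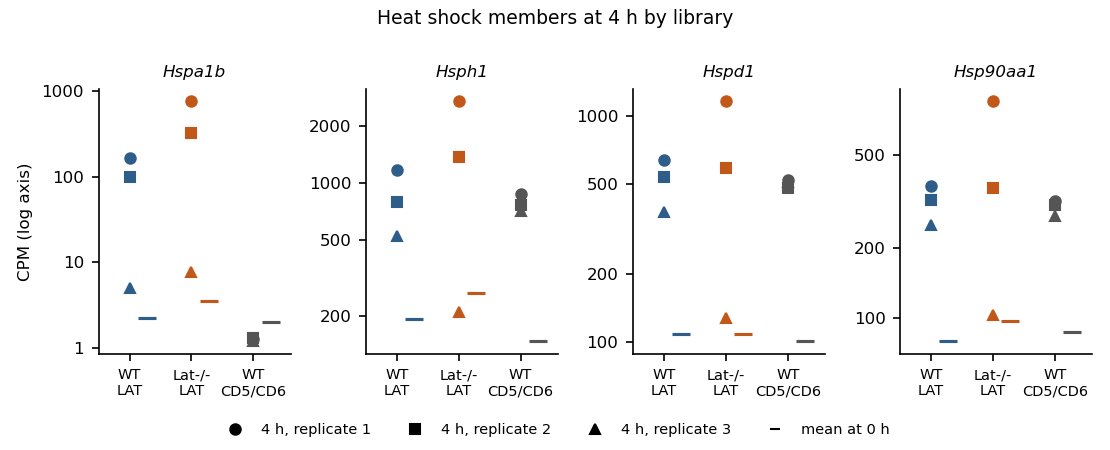
CPM (log axis) of the 4 heat shock members at 4 h in each library, for both genotypes of the LAT experiment and for WT cells of the CD5/CD6 experiment. Circles, squares and triangles are replicates 1, 2 and 3, and dashes the mean of 3 libraries at 0 h. In Lat-/- cells replicate 1 is the highest and replicate 3 the lowest for each gene, and the CD5/CD6 libraries lie close together.

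The heat shock motif GAANNTTC stood in 5 of the 39 promoters (12.8%, against 9.04% of all promoters and 7.96% of those of genes that reached the rise in WT cells alone), namely those of Hspa1b, Hspd1, Hsph1, Dusp16 and Morf4l2. Morf4l2 stood at 116% of the mean of replicates 1 and 2 in Lat-/- replicate 3 at 4 h, though its match lies before the start. Dusp8 and Acot7 were low in that replicate, and their promoters hold no match. Whether the motif has a part in the low values of replicate 3 was not tested. Windows are shown for 3 genes that were low in Lat-/- replicate 3 and hold a match before the start. They lie on the minus strand at chr17:34959315-34959362 (Hspa1b, -104 to -97 from the start), chr1:55088044-55088091 (Hspd1, -139 to -132) and chr6:134792629-134792673 (Dusp16, -25 to -18) of GRCm38.p6, from RefSeq, and capitals mark the match.
Hspa1b: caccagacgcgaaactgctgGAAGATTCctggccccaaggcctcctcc
Hspd1: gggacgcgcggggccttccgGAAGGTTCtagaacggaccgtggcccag
Dusp16: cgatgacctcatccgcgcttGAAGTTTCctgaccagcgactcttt

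Metabolism, trafficking and other roles covered 14 members, of which 9 were lower in every Lat-/- library at 4 h and 0 were higher, where 14.4% and 16.9% of all genes separated. Adk, adenosine kinase, measured 281, 303 and 400.1 CPM at 4 h in WT and 309, 310.0 and 503 CPM in Lat-/- replicates, ranges that overlap. Gch1, the entry enzyme of tetrahydrobiopterin synthesis, reached 123 to 161 CPM and 51.6 to 82.0 CPM, and did not overlap. Smox, spermine oxidase, Coq10b, a coenzyme Q binding protein, Slc37a2, a sugar phosphate carrier, and Acot7, an acyl-CoA thioesterase, also act in metabolism. Gabarapl1, of the ATG8 family, acts in autophagy, and Stx11, a syntaxin, in granule release. Pmaip1 encodes the pro-apoptotic protein NOXA, Ndrg1 a stress-responsive protein, Abi2 a WAVE complex subunit, Med7 a Mediator subunit and Morf4l2 a chromatin protein.

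The last 4 members are noncoding or uncharacterized. A430093F15Rik, annotated as a processed transcript, spans chr19:10740947-10786043 on the plus strand (GRCm38), between Cd5 (1944 bases away) and Cd6 (3297 bases away), which lie on the minus strand. It measured 84.0, 69.5 and 63.9 CPM at 4 h in WT replicates and 13.5, 10.9 and 12.2 CPM in Lat-/- replicates, after 15.2 to 17.5 CPM and 0.739 to 1.82 CPM at 0 h. D430020J02Rik, annotated as a long noncoding RNA with a bidirectional promoter, reached 4.37 to 5.70 CPM in WT and 2.30 to 2.81 CPM in Lat-/- cells. Gm17641 and 1110032F04Rik overlap on opposite strands, Hspd1 overlaps Hspe1, Nab2 overlaps Stat6, and in all 9 members overlap another gene on the opposite strand. The strand setting of the counting is not given in the sources used here, so reads of such pairs may not be separate.

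Other listed pathways of T cell activation held 0 to 6 members each. Of 29 genes listed for MYC and ribosome biogenesis, 19 reached the rise in WT cells, 1 in Lat-/- cells and 0 were members, and Myc itself measured 907 to 1123 CPM at 4 h in WT and 111 to 179 CPM in Lat-/- cells. Of 32 immediate early factors, 14 reached it in WT cells and 11 in Lat-/- cells, and 6 were members (Crem, Egr1, Maff, Nr4a1, Nr4a3 and Per1). Of 27 cytokines and chemokines, 13 and 10 reached it, and Ccl3 and Lif were members. Of 21 activation and costimulatory receptors, 11 and 8 reached it, and Tnfrsf4 and Tnfrsf9 were members. Of 19 genes of RAS and MAPK feedback, 8 and 5 did, with Dusp16 and Spry4 as members. Of 26 genes of the ATF4 and amino acid stress response, 5 and 1 did, and 0 were members. Members spanned a median of 19444 bases of genome, against 22095 for the 458 genes that reached the rise in WT cells alone.

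**Figure D4:**
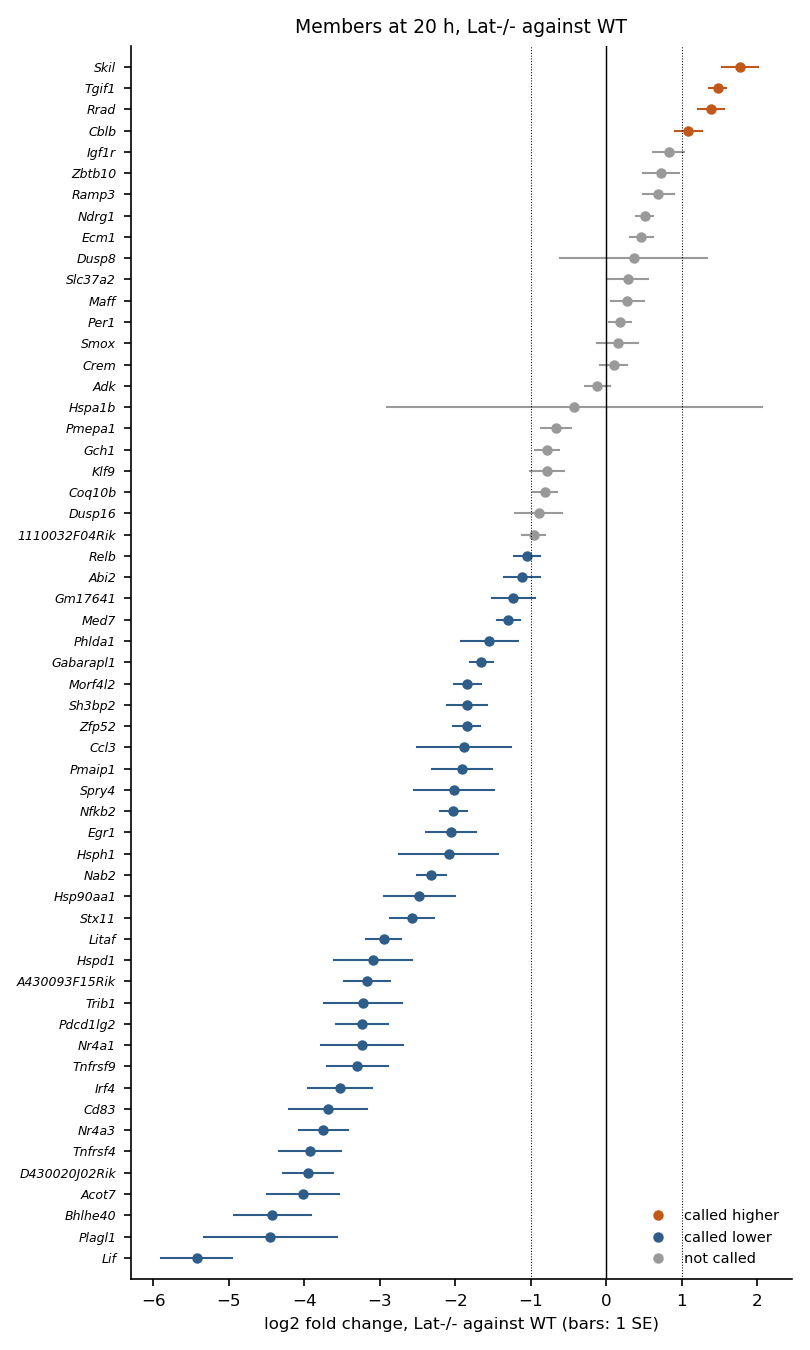
Log2 fold change of the members (1 is not shown) in Lat-/- against WT cells at 20 h, from edgeR after low-count genes were removed, with bars of 1 SE (3 libraries a group). Blue members were called lower (34), orange ones higher (4) and gray ones neither, and dotted lines mark a fold of 2. The members run from Lif at the bottom to Skil at the top, and Plagl1 rests on 2, 3 and 1 counts in Lat-/- libraries.

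The 20 h libraries took no part in choosing the members, so the genotypes could be tested there. At 20 h, 34 of the 58 members were lower in Lat-/- than in WT cells and 4 were higher, by a fold above 2 and an adjusted p under 0.05 (edgeR, quasi-likelihood, with p-values adjusted by Benjamini-Hochberg), where 12.3% of all 27780 genes were called lower and 12.1% higher. Most members average at least 50 counts, and of all such genes 22.3% were called lower and 21.8% higher. The median log2 fold change was -1.61 for the members and -1.92 for the 458 genes that reached the rise in WT cells alone, of which 321 were called lower. It was -2.59 for the 81 genes that reached the rise in both genotypes and are not members, of which 66 were called lower. The shares called lower were thus 58.6% of the members, 70.1% of the 458 and 81.5% of the 81. Fold changes of single members are given with SE and adjusted p from the same test after low-count genes were removed, in which the spread is estimated gene by gene. The regulatory T cell markers summed to 814 to 846 CPM in WT and 12.7 to 59.0 CPM in Lat-/- libraries at 20 h, and the 6 NK cell markers to 10.0 to 12.1 CPM and 51.6 to 65.8 CPM. Their part in the result was not tested.

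Members of every role were called lower. Lif measured 20.9, 24.7 and 14.3 CPM at 20 h in WT replicates and 0.355, 0.180 and 0.807 CPM in Lat-/- replicates, so that the log2 fold change was -5.43 ± 0.47 (± SE, with adjusted p = 1.02e-08). Bhlhe40 measured 111, 120.0 and 113 CPM in WT and 3.86, 2.06 and 9.59 CPM in Lat-/- replicates (-4.42 ± 0.51, adjusted p = 3.83e-07). Acot7 measured 263, 279 and 282 CPM and 13.3, 5.02 and 30.9 CPM (-4.02 ± 0.48, adjusted p = 5.01e-07). The groups did not overlap for these 3, and Lat-/- replicate 2 was the lowest and replicate 3 the highest each time. Tnfrsf4, at 511, 552 and 571 CPM and 27.3, 12.3 and 64.7 CPM, followed the same order (-3.92 ± 0.41, adjusted p = 1.00e-07). So did Nr4a1, at 528, 528 and 509.5 CPM and 41.2, 22.3 and 96.1 CPM (-3.24 ± 0.54, adjusted p = 3.40e-05). D430020J02Rik (-3.96 ± 0.33) was called lower by a similar size. Plagl1 was called lower as well, at 44, 70 and 33 counts in WT libraries and 2, 3 and 1 counts in Lat-/- libraries. Its fold is not given, because the Lat-/- counts are near the floor. Of the heat shock members, Hspd1 (-3.09 ± 0.52), Hsp90aa1 (-2.48 ± 0.47) and Hsph1 (-2.09 ± 0.65) were called lower and Hspa1b (-0.42 ± 2.48) was not.

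Skil, Tgif1, Rrad and Cblb were called higher in Lat-/- cells at 20 h. Skil measured 113, 98.3 and 86.2 CPM in WT and 373, 351 and 249 CPM in Lat-/- replicates (log2 fold change 1.77 ± 0.24, adjusted p = 2.66e-06). Tgif1 measured 54.4, 49.6 and 63.7 CPM and 152, 148 and 147 CPM (1.48 ± 0.11, adjusted p = 1.98e-09). Every Lat-/- library of these genes lay above every WT library. Rrad measured 10.5, 12.0 and 14.0 CPM and 25.4, 28.8 and 37.0 CPM (1.38 ± 0.17, adjusted p = 7.71e-07), and Cblb 170.4, 155 and 118 CPM and 331, 317 and 253 CPM (1.09 ± 0.18, adjusted p = 2.41e-05), again without overlap. Rrad had been lower in every Lat-/- library at 4 h, as had Ecm1 and Ndrg1, whose 20 h libraries were all higher in Lat-/- cells without passing the fold threshold (0.46 ± 0.15 and 0.51 ± 0.11). Crem (0.10 ± 0.18), Adk (-0.12 ± 0.17), Per1 (0.18 ± 0.15) and Smox (0.15 ± 0.27) did not pass the test. At 20 h, 41 members were lower in every Lat-/- library and 8 were higher, where 23.7% and 19.8% of all genes separated. In all, 21 members were lower in every Lat-/- library at 0 h, 4 h and 20 h, as were 1.35% of all genes. Another 10 overlapped at 4 h and were lower in every Lat-/- library at 20 h, among them the 4 heat shock members and Lif, as were 11.3% of all genes.

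**Figure D5:**
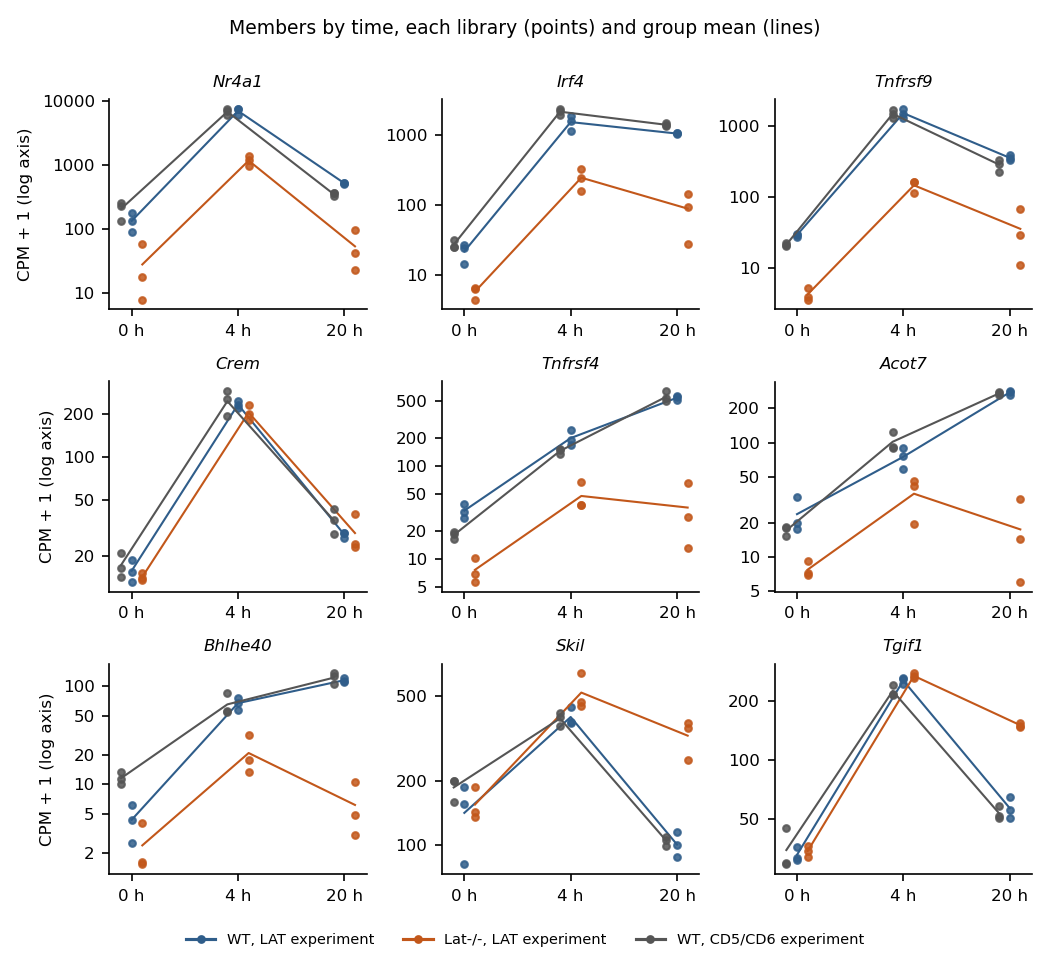
CPM + 1 (log axis) of 9 members at 0, 4 and 20 h. Points are libraries and lines join means of 3 libraries, for both genotypes of the LAT experiment and for WT cells of the CD5/CD6 experiment. Lat-/- cells run lower for Nr4a1, Irf4, Tnfrsf9, Tnfrsf4, Acot7 and Bhlhe40 at 4 h and 20 h, and higher at 20 h for Skil and Tgif1.

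From 4 h to 20 h the members took different courses in the LAT experiment. The mean at 20 h as a percent of that at 4 h had a median of 37.3% in WT cells (range 0.441% to 370%) and 31.3% in Lat-/- cells (range 0.0774% to 118%). It was above 100% for 11 members in WT cells and for 2, Abi2 and Igf1r, in Lat-/- cells. Every 20 h library lay under every 4 h library for 41 members in WT cells and for 47 in Lat-/- cells, and above it for 9 and 0. Of all genes, 16.6% were lower and 22.7% higher in this way in WT cells, and 8.98% and 9.78% in Lat-/- cells. Against 0 h, 44 members were still higher in every WT library at 20 h and 31 in every Lat-/- library, where 20.7% and 8.46% of all genes separated. Tnfrsf4 and Acot7 were higher at 20 h than at 4 h in every WT library, and their 4 h and 20 h libraries overlapped in Lat-/- cells. Crem was lower at 20 h than at 4 h in every library of both genotypes.

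The CD5/CD6 experiment allowed the rise in WT cells to be tested in libraries that the rule had not used, while Lat-/- cells were measured in the LAT experiment alone. In its WT cells, 57 of the 58 members were called higher at 4 h than at 0 h and 0 lower, where 8.24% of 32290 genes were called higher and 11.1% lower. The median log2 fold change was 2.69. Of the 458 genes that reached the rise in WT cells alone, 451 were called higher too, with a median of 2.46. Nr4a3 went from 27.9, 26.2 and 35.6 CPM to 2924, 4162 and 3123 CPM (log2 fold change 7.07 ± 0.27, adjusted p = 1.11e-18), without overlap. Irf4 (6.62 ± 0.19), Tnfrsf9 (6.41 ± 0.29), Lif (5.55 ± 0.55) and Nr4a1 (5.30 ± 0.40) followed. The exception was Hspa1b, with 3.82, 0.312 and 1.92 CPM at 0 h and 1.28, 1.30 and 1.19 CPM at 4 h (-0.44 ± 0.69, adjusted p = 0.601), ranges that overlap. The other heat shock members were called higher, Hsph1 by 2.66 ± 0.24, Hspd1 by 2.58 ± 0.17 and Hsp90aa1 by 2.03 ± 0.21 on the log2 scale.

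By 20 h, 32 members had fallen from their 4 h level in these WT cells and 6 had risen further, where 12.2% of all genes were called lower and 8.74% higher. Ramp3 (-6.42 ± 0.42), Rrad (-4.58 ± 0.24), Nr4a1 (-4.36 ± 0.38) and Nr4a3 (-3.72 ± 0.23) led the falls among members with a mean of at least 50 counts. Ramp3 went from 198, 288 and 273 CPM at 4 h to 1.92, 4.47 and 3.03 CPM at 20 h, below its 16.4 to 24.0 CPM at 0 h. Of the 15 transcription members, 12 were called lower and 0 higher. Those that rose further were Tnfrsf4 (1.87 ± 0.22), Gabarapl1 (1.48 ± 0.18), Acot7 (1.33 ± 0.19), Hspd1 (1.16 ± 0.16), Stx11 (1.08 ± 0.25) and D430020J02Rik (1.08 ± 0.29). Tnfrsf4 went from 153, 147 and 135 CPM to 499, 535 and 643 CPM, without overlap. All 6 were among the members called lower in Lat-/- cells at 20 h. Against 0 h, 35 members were still higher at 20 h and 7 were lower, where 12.3% and 17.3% of all genes were called. Irf4 (5.91 ± 0.18), Lif (5.90 ± 0.56) and Tnfrsf4 (15.4 to 18.3 CPM at 0 h) led the former, and Ramp3 (-2.53 ± 0.36) and Rrad (-2.47 ± 0.23) the latter.

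CD5 and CD6 are related scavenger receptor proteins of T cells that modulate the T cell receptor signal. The 4 h rise was called in 57 members in cells labelled Cd5-/-, in 57 in cells labelled Cd6-/- and in 56 in Cd5-/-Cd6-/- cells, where 8.2%, 7.72% and 7.57% of all genes were called higher and 11.3%, 10.2% and 9.66% lower. In Cd5-/-Cd6-/- cells the members without a called rise were Hspa1b and A430093F15Rik, a gene that lies inside the deletion. Without the 0 h libraries that go against their labels the counts in cells labelled Cd5-/- and Cd6-/- were 57 and 57. At 4 h, 0 members were called between Cd5-/- and WT cells (0.0279% of all genes were called higher and 0.0465% lower) and 0 between Cd6-/- and WT cells (0% and 0.0031%), with 4 and 8 members at an unadjusted p under 0.05 in edgeR and 0 called by DESeq2. In the fit of Cd6-/- against WT cells, 1 member, Lif, was called higher without replicate 1. For the 4 h response itself, 0 members differed between Cd5-/-Cd6-/- and WT cells in edgeR and in DESeq2 (0% of all genes were called in either direction), with 4 members at an unadjusted p under 0.05. Without replicate 3, 2 members (Ccl3 and Hspa1b) were called. These counts do not show that the genotypes act alike.

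A430093F15Rik was the 1 member called between Cd5-/-Cd6-/- and WT cells at 4 h, where 0.0124% of all genes were called lower and 0.031% higher. It measured 83.1, 69.1 and 88.9 CPM in WT replicates and had 3, 1 and 0 counts in Cd5-/-Cd6-/- replicates. In Cd5-/- replicates it measured 121, 105 and 112 CPM and in Cd6-/- replicates 84.2, 72.6 and 63.9 CPM. By the study's methods, the chromosome 19 deletion of these mice runs from the start of Cd5 into the start of Cd6, so it takes in the whole of this gene, which lies between them. At 0 h and 20 h it had 0 to 2 counts in each Cd5-/-Cd6-/- library. With the replicate number as a block, 2 members were called, the second being Ccl3, a chemokine, higher in Cd5-/-Cd6-/- cells by 1.13 on the log2 scale (adjusted p = 0.0271). Without replicate 1 or without replicate 3 it was 3 members, with Ccl3 and Lif.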

How the data were processed

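Poly(A) RNA was sequenced as single 50-base reads from stranded libraries. The authors trimmed adapters, aligned reads to the mouse genome with STAR and counted them per gene with featureCounts, and the authors deposited whole-number counts, 1 table for each experiment. The submitters' processing notes also name DESeq2 and bcl2fastq 2.17.1.14. The annotation release and strand setting are not given in the sources used here. Coordinates are those of the deposited tables (GRCm38), which hold gene identifiers without names. A table of gene names gave symbols for 55144 of 55385 identifiers.

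From the counts, edgeR 4.0.16 (R 4.3.3) fitted all groups of an experiment together with TMM factors and its quasi-likelihood test, over genes with at least 1 read. A gene was called at a fold above 2 and a Benjamini-Hochberg adjusted p under 0.05. In the LAT table this fit had an infinite prior df (50.87 in the CD5/CD6 table), so its errors are not specific to a gene. Fold changes, SEs and p-values of single members therefore come from the same fit after filterByExpr, where the prior df was 6.457 and 4.733. DESeq2 1.42.0 was another alternative. The study calls the samples of a condition independent, while the labels do not say whether they are separate cultures or animals, so p-values measure the spread between these libraries. The scripts were tested on simulated data: of 100 genes changed by a log2 of 2, 100 were recovered for Lat-/- against WT at 20 h, 97 for 4 h against 0 h in WT cells and 95 for the difference of responses.

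The members, role groups and gene lists were chosen with earlier results of these data known, and the roles were sorted by hand once the members were known. Members named per comparison are up to 5 in each direction, called and averaging 50 counts or more, and others were chosen after their values were seen. The values of 1 member are not reported here, though it is counted among the 58. Same-numbered libraries deviated together (every correlation above 0.1) in all comparisons except Lat-/- against WT at 20 h (lowest 0.0725), 4 h against 0 h in Cd6-/- (lowest 0.037) and the difference of responses (lowest -0.0867).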

Additional observations from a re-analysis of the deposited data

Results flagged for a closer look

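For 3 members, every WT library moved one way and every Lat-/- library the opposite way between times of the LAT experiment, and the difference was not tested. From 0 h to 20 h, Ndrg1 changed by -0.61 in WT and 1.58 in Lat-/- cells on the log2(CPM + 1) scale, a difference of 2.19. From 4 h to 20 h, Bhlhe40 changed by 0.79 in WT and -1.86 in Lat-/- cells, a difference of -2.65. Over the same time D430020J02Rik changed by 0.95 in WT and -1.11 in Lat-/- cells, a difference of -2.06.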

How the results depend on the processing

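The rule gave 56 to 78 members with other pseudocounts, count minimums or scalings and 51 to 65 without 1 replicate (45 to 47 of them shared with the 58). Restricted, after the data were seen, to the 32 members kept whichever LAT replicate was left out, the calls were 21 for Lat-/- against WT at 20 h, 32, 31, 32 and 32 for 4 h against 0 h in WT, Cd5-/-Cd6-/-, Cd5-/- and Cd6-/- cells, 22 for 20 h against 4 h and 23 for 20 h against 0 h in WT cells, since fewer members were tested. Leaving out 1 replicate gave 0 to 1 calls for Cd6-/- against WT at 4 h, 1 to 3 for Cd5-/-Cd6-/- against WT at 4 h and 0 to 2 for the difference of responses. Fitting the compared groups alone gave 1 and 2 calls in the first 2 of these. The replicate block gave 2 calls for Cd5-/-Cd6-/- against WT at 4 h. It kept the other counts within 1.5 times, such as 38 for Lat-/- against WT at 20 h, where the shared numbers are not known to pair the libraries. Of the fold changes of named members under the alternatives, 467 kept their direction and call, 0 reversed, and 2 lost the fold threshold, Hspd1 for 20 h against 4 h without replicate 2 (0.99) and Zbtb10 for 20 h against 0 h without replicate 1 (-0.88). Members under about 3 counts in a group, such as Spry4 in Lat-/- cells at 0 h and Plagl1 in Lat-/- cells at 20 h, carry no fold in the text.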
